A study of Mus musculus with 9 samples.

Results

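The enzymes and helper proteins that process and crosslink collagen were followed through the differentiation of 3T3-L1 cells, a line of mouse preadipocytes that store lipid once induced. The 10 genes were taken by symbol. They are the 5 lysyl oxidases Lox, Loxl1, Loxl2, Loxl3 and Loxl4, the 3 lysyl hydroxylases Plod1, Plod2 and Plod3, the collagen chaperone Serpinh1 and the procollagen C-proteinase enhancer Pcolce. They are 10 of the 19094 genes listed in at least 1 sample. All 10 were detected in all 9 samples and passed the filter on low counts, which kept 13154 genes.

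Bulk RNA-seq was performed on 3T3-L1 cells at 3 stages, with 3 samples per stage. Day 0 cells were collected before induction. Day 4 cells had been kept for 2 days in induction medium with dexamethasone, IBMX and insulin and afterwards in insulin-containing maintenance medium. Day 8 cells had received fresh maintenance medium for 4 more days. All samples share the cell line, and no label names a genotype, allele or agent beyond the stage. The early phase is day 4 against day 0, the late phase is day 8 against day 4, and the whole process is day 8 against day 0. The phases share samples, so that the 3 comparisons are not independent. Between 18216114 and 20452144 expected counts were assigned to genes in a sample. Cells of a stage were pooled and the samples were mixtures of RNA, and nothing in the sources used here says that the replicates came from separate cultures. The p-values then measure only the spread between these samples, which may be technical.

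Fibrillar collagen is made as procollagen in the endoplasmic reticulum, where lysyl hydroxylases add hydroxyl groups to lysines and Serpinh1 (also known as Hsp47) binds the folded triple helix. After export, proteinases remove the propeptides, a step that Pcolce speeds up, and the lysyl oxidases, copper-dependent enzymes of the extracellular space, turn lysines and hydroxylysines into aldehydes that join neighbouring chains of collagen or elastin. Adipocytes are wrapped in such a matrix, and preadipocytes are fibroblast-like cells that produce it.

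The stages were checked with marker genes. The label of every sample gives the cell type as adipocytes, day 0 included. At day 0, Adipoq, which encodes the adipocyte hormone adiponectin, was at 0.60, 0.63 and 0.28 FPKM (the deposited level, fragments scaled to gene length and depth), and Plin1, which coats lipid droplets, was at 0.0800, 0.210 and 0.240 FPKM. By day 4 Adipoq had reached 467 ± 93.5 FPKM, and by day 8 the level was 819.8 ± 59.6 FPKM (mean ± SD, n = 3). Other markers of the list were present at day 0, with Lpl at 117 FPKM, Pparg at 11.5 FPKM, Fabp4 at 9.52 FPKM, Cebpa at 5.89 FPKM and Cidec at 0.683 FPKM, while Lep was not listed in any of the 3 day 0 samples. All 8 adipocyte markers rose more than 2-fold in the early phase, and 1 of 8 did in the late phase, beside 9.77% and 4.24% of all genes tested. Their summed level was 5720 FPKM in day 4 replicate 1, 6754 in replicate 2 and 8134 in replicate 3, so that the day 4 samples differed among themselves more than the day 8 samples, which lay between 8223 and 8962 FPKM. In bulk samples, fewer cells of a type and less RNA per cell cannot be told apart, and the stage and the share of differentiated cells cannot be told apart either. The 8 preadipocyte and fibroblast markers moved in both directions, with 1 higher and 6 lower early and 3 higher and 3 lower late at an adjusted p under 0.05 in edgeR's quasi-likelihood test, beside 69.2% of all genes called early and 45.3% late. Dlk1, Ly6a and Fbn1 fell more than 2-fold early (log2 fold change -2.13, -1.90 and -2.07), and Dlk1 and Fbn1 rose again late (1.24 and 1.5). Pdgfra rose early (0.84) and fell late (-0.59). Thy1 fell early (-0.44) and rose late (0.45), and was at 0.01 over the whole process. S100a4 did not pass early (0.09) and fell late (-0.19). Vim, the most abundant on each day, was at 2541 ± 83.3 FPKM before induction and 1425 ± 55.6 FPKM on day 8.

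Several defining markers of other cell types were near 0, and Cd14, Cd68, Des and Acta1 were not. The macrophage markers Ptprc, Adgre1 and Itgam did not exceed 0.0400 FPKM in any sample, and the summed level of the 6 macrophage markers was 6.06, 4.84 and 4.54 FPKM on days 0, 4 and 8, of which Cd14 held 4.48, 3.13 and 2.70 FPKM. The 6 endothelial markers summed to 0.90, 0.27 and 0.35 FPKM, with Vwf the most abundant at day 0, Pecam1 at days 4 and 8, and Cldn5 not listed. The 6 skeletal muscle markers summed to 4.51, 5.16 and 9.63 FPKM, and Myod1 was not listed. Des, which encodes the filament protein desmin, made up most of this sum and rose from 3.74 ± 0.191 FPKM to 8.23 ± 0.451 FPKM between day 0 and day 8 (log2 fold change 1.25 ± 0.08, adjusted p = 8.7e-10), while Myog, Myh3 and Ckm did not exceed 0.0600 FPKM in any sample. The part of these genes' source cells in the results was not tested.

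The 10 genes spanned a wide range of levels. The order at the top was the same at each stage, with Pcolce above Serpinh1, Lox and Loxl1. Below them, Plod3 led Plod1 at day 0 and Plod1 led Plod3 at days 4 and 8. Loxl2 was the lowest on every day. Neighbours in this order did not overlap between samples, except Lox with Loxl1 and Plod2 with Loxl3 at day 8.

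**Figure D1:**
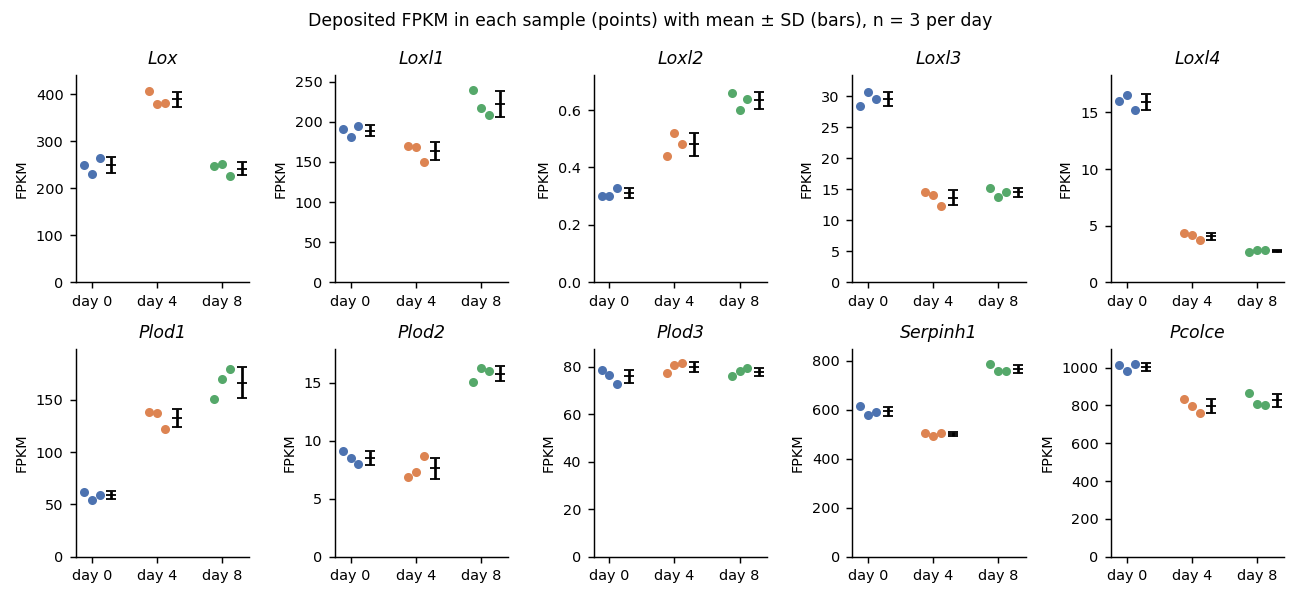
FPKM of each of the 10 genes in each sample (points) at day 0, day 4 and day 8, with the mean of 3 samples and its SD, and a separate linear axis from 0 for each gene. Lox peaks at day 4, Plod1 climbs at each step, Loxl4 drops at each step, and Plod2 and Serpinh1 are highest at day 8.

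Among the lysyl oxidases, Lox rose and then fell back to a level that overlapped its starting one, while Loxl1 went the opposite way by a smaller margin. Loxl3 and Loxl4 fell in the early phase, and the faint Loxl2 rose over the whole process. Lox (gene ID 16948) is the founding enzyme of the family. Its level was 250.3, 231 and 265 FPKM at day 0, then 408, 380.1 and 381 FPKM at day 4, and 248, 252 and 226 FPKM at day 8. The day 4 samples were above all others, and day 0 overlapped day 8. Lox rose early with a log2 fold change of 0.69 ± 0.06 (SE; adjusted p = 3.0e-08, edgeR's quasi-likelihood test with Benjamini-Hochberg adjustment over the 13154 genes, as for all adjusted p below). In the late phase it fell, with a log2 fold change of -0.63 ± 0.06 (adjusted p = 2.8e-07), and over the whole process its log2 fold change was 0.06 ± 0.06 (adjusted p = 0.404), which did not pass. A log2 fold change of 1 is a 2-fold difference, so neither step of Lox reached 2-fold.

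Loxl1 (gene ID 16949), the family member known for its role in elastic fibres, was at 191, 181 and 195 FPKM at day 0. It was at 170.3, 169 and 151 FPKM at day 4 and at 239.8, 217 and 209 FPKM at day 8. The 3 stages did not overlap, with day 4 lowest and day 8 highest. The log2 fold change was -0.14 ± 0.06 early (adjusted p = 0.0423), 0.49 ± 0.06 late (adjusted p = 6.7e-06) and 0.34 ± 0.06 over the whole process (adjusted p = 9.1e-05). The small early fall did not pass without day 4 replicate 3, where it was -0.08, nor without day 0 replicate 1, day 0 replicate 3 or day 8 replicate 2, where it was -0.13, -0.12 and -0.14. It did not pass either in a separate fit to the 6 samples of both days, where it was -0.15.

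Loxl4 (gene ID 67573) showed the widest range of day means among the 10 genes. It was at 16.0, 16.5 and 15.2 FPKM at day 0, at 4.34, 4.19 and 3.74 FPKM at day 4 and at 2.65, 2.82 and 2.83 FPKM at day 8. Every sample of a later stage was below every sample of the earlier one. The log2 fold change was -1.89 ± 0.06 early (adjusted p = 3.1e-13), -0.52 ± 0.07 late (adjusted p = 3.1e-05) and -2.41 ± 0.07 over the whole process (adjusted p = 3.4e-14).

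Loxl3 (gene ID 16950), which like Loxl2 and Loxl4 carries scavenger receptor domains ahead of the catalytic part, was at 28.4, 30.7 and 29.7 FPKM at day 0. It was at 14.6, 14.1 and 12.3 FPKM at day 4 and at 15.2, 13.8 and 14.6 FPKM at day 8. Day 0 was above both later stages, which overlapped each other. Loxl3 fell in the early phase with a log2 fold change of -1.05 ± 0.06 (adjusted p = 2.7e-10), which was -0.97 without day 4 replicate 3 and then under 2-fold. The late log2 fold change of 0.13 ± 0.06 did not pass (adjusted p = 0.107), and that over the whole process was -0.91 ± 0.06 (adjusted p = 1.3e-09). Exons of Loxl3 overlap those of Htra2 on the other strand over 11.6% of their bases in GENCODE, and the counting by strand is not stated, so that reads in that stretch cannot be assigned with certainty.

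Loxl2 (gene ID 94352) was barely expressed, with day 0 samples at 0.30, 0.30 and 0.33 FPKM, day 4 samples at 0.44, 0.52 and 0.48 FPKM and day 8 samples at 0.66, 0.60 and 0.64 FPKM. The stages did not overlap. The log2 fold change was 0.69 ± 0.18 early (adjusted p = 0.00287), 0.45 ± 0.16 late (adjusted p = 0.0313) and 1.14 ± 0.17 over the whole process (adjusted p = 2.0e-05). The late rise lost the call in 6 of 20 alternative settings. These low values carry an added uncertainty, since 45.0% of all 50-base stretches in Loxl2 transcripts also occur in other genes, 42.9% in the pseudogene Gm21451 alone. On the log2(FPKM + 1) scale, which compresses genes at such low levels, the change over the whole process was 0.32.

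Lox took a changing share of the family's summed FPKM. Lox accounted for 51.4% ± 1.15 on day 0, for 68.2% ± 1.28 on day 4 and for 50.3% ± 1.46 on day 8 (SD, n = 3), and that of Loxl1 was 39.1% ± 0.498, 28.6% ± 1.13 and 46.0% ± 1.38. Loxl3 and Loxl4 together with Loxl2 made up the rest, with Loxl4 going from 3.30% ± 0.295 to 0.576% ± 0.0510 between day 0 and day 8. Summed over the 5 lysyl oxidases, FPKM was 484 ± 22.6, 571 ± 25.1 and 482 ± 27.1 on days 0, 4 and 8.

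**Figure D2:**
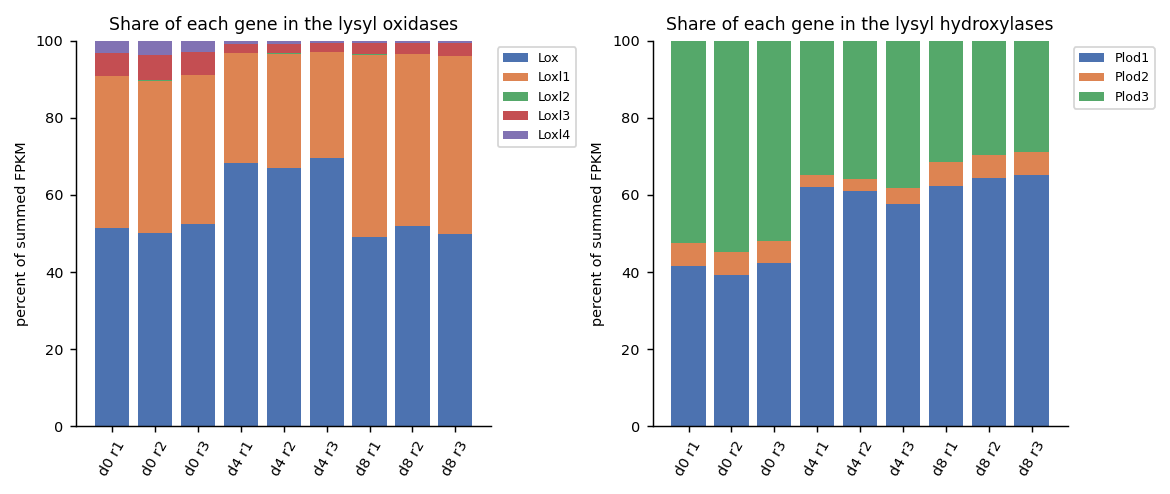
Percent of the summed FPKM of the 5 lysyl oxidases and of the 3 lysyl hydroxylases taken by each gene in each of the 9 samples, as stacked bars from 0 to 100%. Lox takes 68.2% of its family at day 4, and Plod1 overtakes Plod3 between day 0 and day 4.

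The ratio of Lox to Loxl1 in FPKM was 1.32 ± 0.0454, 2.39 ± 0.139 and 1.09 ± 0.0647 on days 0, 4 and 8. No 2 stages overlapped. Differences between stages on the log2 scale were 0.86 early, -1.13 late and -0.27 over the whole process, each with p = 0.1 in a two-sided exact permutation test, the smallest that 3 samples against 3 allow (adjusted p = 0.106 over the 18 ratio comparisons made by this exact permutation test).

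The lysyl hydroxylases rose at different times. Plod1 increased most in the early phase, Plod2 increased in the late phase, and Plod3 moved by no more than 0.15 on the log2 scale. Plod1 (gene ID 18822), which hydroxylates lysines in the helical part of collagen, was at 62.2, 54.6 and 59.5 FPKM at day 0. It reached 138, 137 and 122 FPKM at day 4 and 150.5, 170.0 and 179 FPKM at day 8. No stages overlapped. The log2 fold change was 1.24 ± 0.07 early (adjusted p = 3.0e-10), 0.37 ± 0.07 late (adjusted p = 5.1e-04) and 1.61 ± 0.07 over the whole process (adjusted p = 1.2e-11).

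Plod2 (gene ID 26432), which hydroxylates the lysines in the telopeptides at the ends of the chains, was at 9.14, 8.47 and 7.96 FPKM at day 0 and at 6.91, 7.28 and 8.65 FPKM at day 4. At day 8 it was at 15.0, 16.2 and 16.1 FPKM. Days 0 and 4 overlapped, and all day 8 samples were above both. The early log2 fold change of -0.10 ± 0.08 did not pass (adjusted p = 0.302), and the late one was 1.10 ± 0.08 (adjusted p = 1.1e-08). Over the whole process Plod2 rose by 1.00 ± 0.08 (adjusted p = 7.1e-09), a value that lies on the 2-fold threshold and falls below it in several alternatives. Exons of Plod2 overlap those of Gm38391 on the other strand over 6.42% of their bases.

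Plod3 (gene ID 26433), which also transfers sugars to hydroxylysine, was between 72.8 and 81.4 FPKM in all 9 samples, and the stages overlapped in FPKM. Its log2 fold change was 0.14 ± 0.05 early (adjusted p = 0.0141), 0.01 ± 0.05 late (adjusted p = 0.920) and 0.15 ± 0.05 over the whole process (adjusted p = 0.0103). Both rises lost the call with library size alone, with upper-quartile factors and with limma on FPKM. Without day 0 replicate 3 they did not pass either, at 0.11 and 0.12, nor did the early one without day 4 replicate 2, at 0.12. Its exons overlap those of Znhit1 on the other strand over 11.7% of their bases. Plod3 was 53.0% ± 1.53 of the summed FPKM of the 3 hydroxylases at day 0 and 30.0% ± 1.33 at day 8 (SD, n = 3), while the share of Plod1 went from 41.0% ± 1.68 to 64.0% ± 1.5.

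The ratio of Plod2 to Plod1 in FPKM was 0.145 ± 0.0108, 0.0579 ± 0.0112 and 0.0950 ± 0.00525 on days 0, 4 and 8. The stages did not overlap, with the ratio lowest at day 4. The differences on the log2 scale were -1.34, 0.73 and -0.61 for the early phase, the late phase and the whole process (two-sided exact permutation test, p = 0.1 each, the smallest possible, and adjusted p = 0.106).

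Serpinh1 and Pcolce, the most abundant of the 10 genes, fell slightly in the early phase. In the late phase Serpinh1 rose, and the change of Pcolce did not pass. Serpinh1 (gene ID 12406) was at 613, 577 and 592 FPKM at day 0, at 505, 492 and 506 FPKM at day 4 and at 786, 759 and 757 FPKM at day 8. The stages did not overlap, with day 4 lowest and day 8 highest. Its log2 fold change was -0.18 ± 0.04 early (adjusted p = 0.00188), 0.66 ± 0.04 late (adjusted p = 6.9e-09) and 0.48 ± 0.04 over the whole process (adjusted p = 8.2e-08).

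Pcolce (gene ID 18542) was at 1013, 979.9 and 1017 FPKM at day 0, at 832, 798 and 757 FPKM at day 4 and at 868, 809 and 805 FPKM at day 8. Day 0 was above both later stages, which overlapped in FPKM. Its log2 fold change was -0.27 ± 0.05 early (adjusted p = 1.7e-04), 0.10 ± 0.05 late (adjusted p = 0.110) and -0.17 ± 0.05 over the whole process (adjusted p = 0.00704). Exons of Pcolce overlap those of Fbxo24 on the same strand over 2.93% of their bases, and those of Gm36266 on the other strand over 2.93%.

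**Figure D3:**
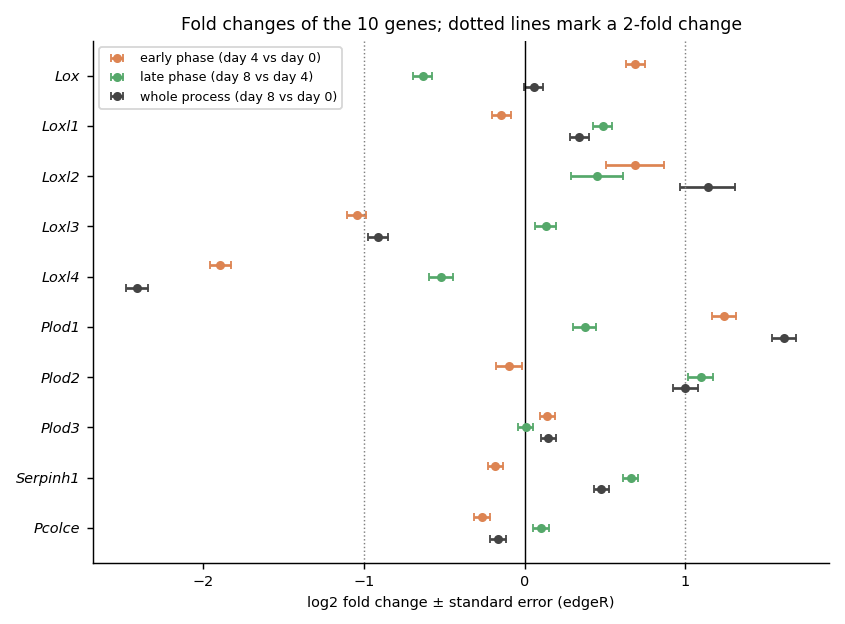
Log2 fold change with its SE for each of the 10 genes in the early phase, the late phase and the whole process, from edgeR's quasi-likelihood fit. Loxl4 is the most negative early and over the whole process, Lox the most negative late at -0.63, Plod1 has the most positive early value at 1.24, and Plod2 the most positive late value at 1.10.

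Counted over the 10 genes with an adjusted p under 0.05 and a change above 2-fold, 1 gene rose (Plod1) and 2 fell (Loxl3 and Loxl4) in the early phase. Of all genes tested, 9.77% rose and 7.98% fell by this measure, 17.8% together. In the late phase 1 rose (Plod2) and 0 fell, beside 4.24% and 2.81% of all genes, 7.05% together. Over the whole process 3 rose (Loxl2, Plod1 and Plod2) and 1 fell (Loxl4), beside 10.3% and 7.70% of all genes, 18.0% together. These whole-process counts depended on the setting. Limma on log2(FPKM + 1) or log2(FPKM + 0.1) called 1 higher, and the count was as low as 2 when each sample was left out in turn. Library size alone or limma on log2(FPKM + 0.1) called 2 lower. At an adjusted p under 0.05 with any fold change, 4 of the 10 genes rose and 5 fell early, beside 35.5% and 33.7% of all genes (69.2% together). Late, 5 rose and 2 fell (Lox and Loxl4), beside 22.5% and 22.7% (45.3% together). Over the whole process 6 rose and 3 fell, beside 34.8% and 36.2% (71.0% together). The samples of both stages did not overlap in CPM for 9, 8 and 9 of the 10 genes. Of all genes, this held for 72.3%, 54.5% and 75.5%. CPM here is counts scaled to library size and to edgeR's TMM factor, a normalization factor per sample. In FPKM, which is not scaled by that factor, Plod3 did overlap early and over the whole process, and Pcolce late. The median log2 fold change of the 10 genes was -0.12 early, 0.25 late and 0.24 over the whole process, beside 0.02, -0.01 and -0.02 for all genes.

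Among the substrates of these enzymes, the abundant type I and type III collagen chains rose in the late phase. In the early phase the type I chains Col1a1 and Col1a2 fell slightly (log2 fold change -0.18 and -0.25, adjusted p = 0.00552 and 0.00161). The early value of Col3a1, 0.08, did not pass (adjusted p = 0.407). The tested minor chains changed in the early phase and, except Col11a1, in the late phase. The 9 fibrillar collagen chains summed to 4522 ± 269, 3955 ± 193 and 7139.6 ± 81.8 FPKM on days 0, 4 and 8 (SD, n = 3). Of the 8 chains tested, 4 rose and 3 fell early and 6 rose and 1 fell late at an adjusted p under 0.05, beside 69.2% of all genes called early and 45.3% late. By more than 2-fold, 1 rose early, and 1 rose and 1 fell late, beside 17.8% and 7.05% of all genes called. The log2 fold changes of the minor chains Col5a1, Col5a2, Col5a3, Col11a1 and Col11a2 were 0.45, -0.56, 1.16, 0.97 and 0.80 early and 0.31, 0.57, 0.42, 0.22 and -1.01 late, where the value of Col11a1 did not pass (adjusted p = 0.0790). The difference between the phases was not tested. Col1a2, a chain of type I collagen and the most abundant, was at 1900.3, 1726 and 1877 FPKM at day 0, at 1568, 1497 and 1363 FPKM at day 4 and at 2538, 2473 and 2525 FPKM at day 8. The day 4 samples were the lowest and the day 8 samples the highest, with no overlap. Col3a1, the chain of type III collagen, rose late with a log2 fold change of 1.26 ± 0.08 (adjusted p = 3.75e-09). Col5a3, a chain of type V collagen, rose early by 1.16 ± 0.06 (adjusted p = 1.3e-10) and over the whole process by 1.58 ± 0.07. Col11a2, a minor chain at about 1 to 2 FPKM, fell in the late phase (log2 fold change -1.01 ± 0.18, adjusted p = 2.4e-04).

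Set against the summed fibrillar collagens, the lysyl oxidases were at a ratio of 0.107 ± 0.00346, 0.144 ± 0.00248 and 0.0675 ± 0.00441 on days 0, 4 and 8. The stages did not overlap. The log2 difference was 0.43 early, -1.10 late and -0.67 over the whole process (two-sided exact permutation test, p = 0.1 each, the smallest possible, and adjusted p = 0.106). The hydroxylases were at 0.0317 ± 0.00141, 0.0557 ± 0.00148 and 0.0364 ± 0.00218, with log2 differences of 0.81, -0.61 and 0.20 and the same p in each exact permutation test.

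The ratio of Serpinh1 to the collagens was 0.132 ± 0.00477 at day 0 and 0.127 ± 0.00730 at day 4, which overlapped (two-sided exact permutation test, p = 0.5), and 0.107 ± 0.00285 at day 8. Pcolce was at 0.222 ± 0.00916, 0.201 ± 0.00185 and 0.116 ± 0.00550, a log2 difference of -0.94 over the whole process (exact permutation test, p = 0.1). At day 8 the lysyl oxidases, Serpinh1 and Pcolce were each at their lowest ratio to the collagens, and the hydroxylases were not.

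**Figure D4:**
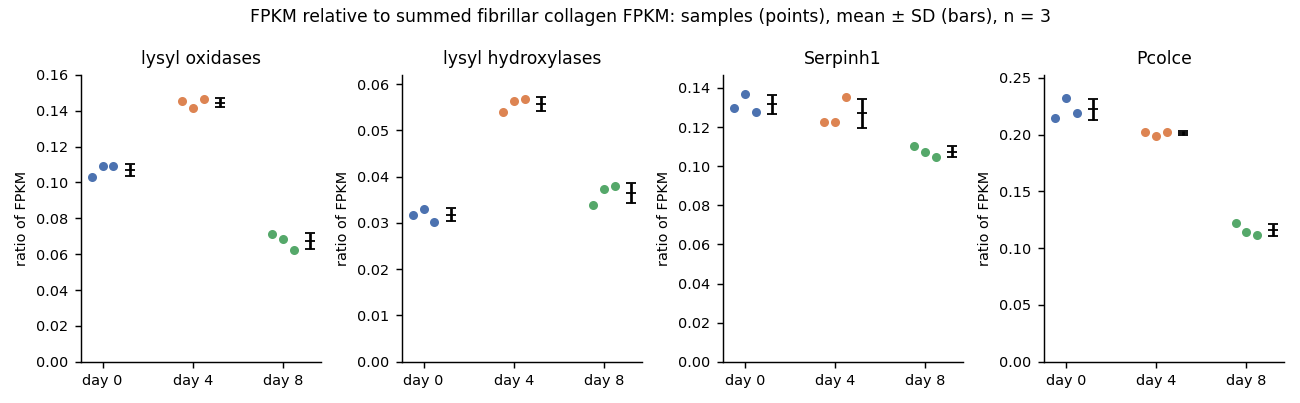
Ratio of the summed FPKM of the lysyl oxidases, the summed FPKM of the lysyl hydroxylases, Serpinh1 and Pcolce to the summed FPKM of the fibrillar collagen chains in each sample (points) with the mean of 3 samples and its SD, on linear axes from 0. The lysyl oxidases reach 0.144 at day 4 and 0.0675 at day 8.

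Other genes of the same pathway were taken from lists written by hand. Their counts at an adjusted p under 0.05 stand beside 69.2% of all genes called early, 45.3% late and 71.0% over the whole process. Of the 10 proline hydroxylation genes, whose enzymes stabilise the triple helix, 7 rose and 2 fell early, 7 rose late, and 8 rose and 2 fell over the whole process at an adjusted p under 0.05. P4hb, the beta subunit of prolyl 4-hydroxylase and the most abundant, rose early by 0.64 ± 0.05 on the log2 scale (adjusted p = 6.6e-09) and was at -0.01 ± 0.05 late (adjusted p = 0.893). The catalytic subunit P4ha1 was at 35.7, 32.7 and 34.4 FPKM at day 0, at 34.1, 35.1 and 41.1 FPKM at day 4 and at 69.9, 77.0 and 79.6 FPKM at day 8. Days 0 and 4 overlapped, and every day 8 sample was higher. Its log2 fold change was 0.17 ± 0.07 early (adjusted p = 0.0426), where Plod2 did not pass, and 1.08 ± 0.07 late (adjusted p = 3.3e-09). P4ha2 rose over the whole process by 1.35 ± 0.08 (adjusted p = 1.6e-10), and P3h2, which modifies prolines at another carbon and was near 1 FPKM at day 0, fell early (log2 fold change -2.10 ± 0.28, adjusted p = 5.75e-06).

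Of the 5 tested genes of lysine glycosylation and hydroxylase partners, 5 rose early, 2 rose and 1 fell late, and 3 rose over the whole process. Fkbp10, a partner of Plod2 and the most abundant of them, rose early by 0.17 ± 0.05 (adjusted p = 0.00400), and Fkbp14, an endoplasmic reticulum foldase, rose over the whole process by 1.22 ± 0.06 (adjusted p = 9.9e-12). Of the 6 tested genes of propeptide cleavage, 3 rose and 3 fell early. Bmp1, the C-proteinase that Pcolce enhances, rose early by 0.24 ± 0.06 (adjusted p = 0.00331), and its late value of -0.07 ± 0.06 did not pass (adjusted p = 0.394). Adamts2, the N-proteinase of procollagen, was at 13.2, 10.5 and 12.4 FPKM at day 0 and at 39.1, 39.3 and 37.1 FPKM at day 4, and it rose early by 1.75 ± 0.07 (adjusted p = 1.7e-12). Mep1a, a metalloprotease that can cleave procollagen propeptides, fell early (log2 fold change -2.09 ± 0.43, adjusted p = 3.8e-04) from a level of only 0.257 FPKM.

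Of the 7 tested genes of procollagen export, 2 rose and 2 fell early, and 4 rose and 1 fell late. By more than 2-fold, 0 of them changed in either phase, beside 17.8% of all genes early and 7.05% late. Creb3l1, a transcription factor of secretory and collagen genes, was the most abundant and rose late by 0.74 ± 0.05 (adjusted p = 1.5e-08), with an early value of -0.02 ± 0.05 (adjusted p = 0.763). Of the 4 copper supply genes, 3 rose early, and 1 fell late. Atox1, the chaperone that hands copper to the secretory pathway, rose early by 0.44 ± 0.07 (adjusted p = 6.6e-05).

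The 8 elastin and lysyl oxidase matrix partners changed in both directions, with 2 higher and 5 lower early and 7 higher and 1 lower late. Fn1, which encodes fibronectin and was named after its values were seen, was the most abundant at day 0, at 1145 ± 120.1 FPKM, and fell early to 191 ± 28.1 FPKM (log2 fold change -2.53 ± 0.10, adjusted p = 2.0e-12). The summed FPKM of the list was 1964 ± 125, 901 ± 62.1 and 1540.5 ± 23.4 on days 0, 4 and 8. Postn, which encodes periostin, a matrix protein that binds Bmp1, was the most abundant at days 4 and 8 and rose by 0.75 ± 0.07 early and 0.99 ± 0.07 late (adjusted p = 1.6e-07 and 2.0e-08). Eln, which encodes elastin, was at 0.36 ± 0.068 FPKM before induction and 6.91 ± 0.30 FPKM on day 8, a log2 fold change of 4.37 ± 0.13 (adjusted p = 8.4e-14). Thbs1, which encodes thrombospondin 1, fell early (log2 fold change -3.65 ± 0.09, adjusted p = 6.0e-15) and then rose late by 1.22 ± 0.08. Fmod, which encodes fibromodulin, a collagen-binding proteoglycan, fell early and rose late (log2 fold change -1.69 ± 0.09 and 3.03 ± 0.09, adjusted p = 9.0e-11 and 2.0e-13).

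Of the 3 tested enzymes that crosslink matrix by other chemistry, 3 rose early, 1 rose and 2 fell late, and 3 rose over the whole process. Tgm2, a transglutaminase, went from 0.267 ± 0.0907 FPKM before induction to 7.04 ± 0.696 FPKM on day 8 (log2 fold change 4.81 ± 0.16, adjusted p = 2.7e-13). Qsox1, a disulfide-forming oxidase, was at 44.1 ± 0.761, 101 ± 3.21 and 79.2 ± 5.01 FPKM at days 0, 4 and 8, an early rise and a late fall (log2 fold change 1.23 ± 0.05 and -0.34 ± 0.05, adjusted p = 4.2e-12 and 4.5e-05).

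Plod2, Lox and P4ha1 are known to be induced by hypoxia-inducible factors in many cells, and 12 hypoxia-response genes were therefore counted. Of these, 6 rose more than 2-fold early, 9 late and 10 over the whole process, beside 9.77%, 4.24% and 10.3% of all genes. Their median log2 fold change was 1.02, 1.37 and 2.40. Slc2a1, a glucose transporter, and Adm, which encodes adrenomedullin, fell early (log2 fold change -0.55 and -0.43). Ldha, which makes lactate, was at 201, 244 and 206 FPKM at day 0, at 357, 467 and 486 FPKM at day 4 and at 723, 790.2 and 797 FPKM at day 8. Its rise was 1.08 ± 0.10 early and 0.86 ± 0.09 late (adjusted p = 4.7e-08 and 1.75e-06). Egln3 and Car9, a prolyl hydroxylase of the factor and a carbonic anhydrase, rose over the whole process by 5.57 ± 0.16 and 5.72 ± 0.18. In the same late phase Plod2 rose and Lox fell. The part of oxygen supply in these values was not tested.

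**Figure D5:**
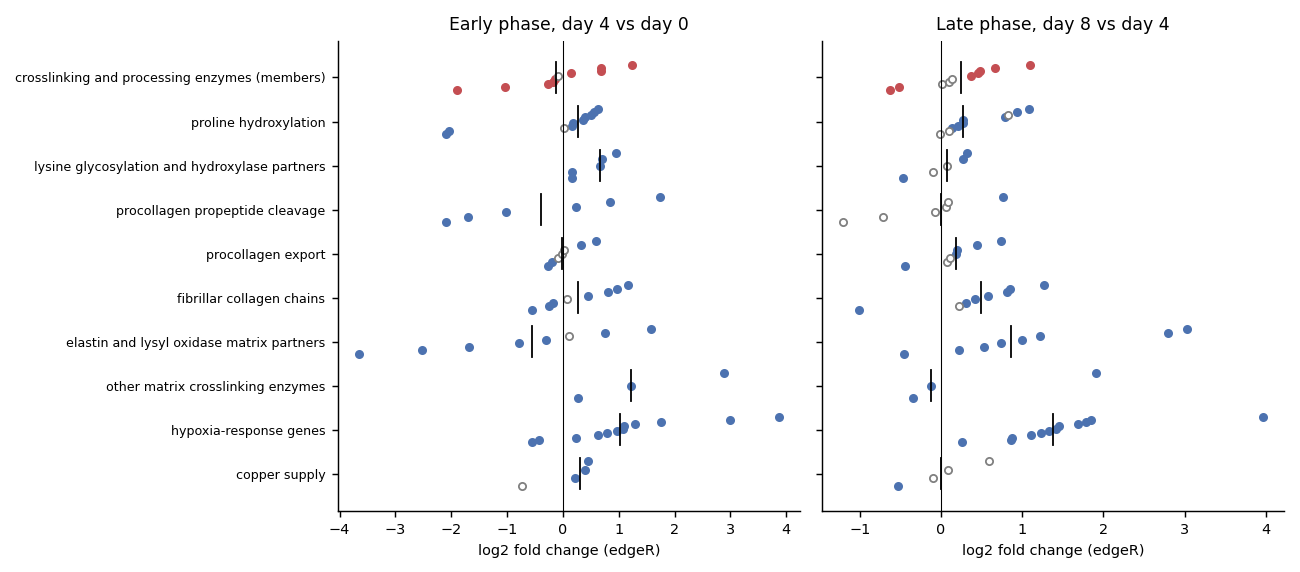
Log2 fold change of each tested gene of the 10 genes (red) and of the pathway lists in the early and the late phase, with filled points for an adjusted p under 0.05, open points for those that did not pass, and a vertical tick at each list's median. The horizontal ranges of both panels differ. Hypoxia-response genes lie to the right of 0 late, and the matrix partners lie on both sides early.

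The genes whose profile was most like that of the 3 members with the widest range were listed by Pearson's r of log2 CPM over the 9 samples, among 8285 genes of at least moderate level. The 9 points share 3 stages and their library scaling, so r is given as a description. Ass1, the urea-cycle enzyme argininosuccinate synthase, was closest to Loxl4 (r = 0.999) and went from 98.9 to 25.1 and 16.9 FPKM. Tnfrsf10b and Tinagl1 came next, both with r = 0.997. Col5a3 was closest to Plod1 (r = 0.997), followed by Mccc1 and Siglec1 (r = 0.996 each). Stx6 was closest to Plod2 (r = 0.990), followed by Rbpms and Ero1l (r = 0.989 each). Ero1l, an oxidase for disulfide formation in the endoplasmic reticulum, was at 56.8, 44.4 and 232 FPKM at days 0, 4 and 8.

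Plod1 and Loxl4, the members with the largest rise and the largest fall, are shown with the 250 bases before their RefSeq start (GRCm38.p6, minus strand, 5′ to 3′). They are shown because these genes moved furthest, and no binding data were used here. Capitals mark 5 motifs on either strand. They are the TATA box spelled TATAAA (or, on the other strand, TTTATA), the CCAAT box spelled CCAAT (on the other strand ATTGG), the GC box spelled GGGCGG (on the other strand CCGCCC), and both cores of the hypoxia response element, of which the first is ACGTG (on the other strand CACGT) and the second is GCGTG (on the other strand CACGC). The first core overlaps its own reverse complement wherever both occur in the E-box palindrome. The Plod1 stretch is at chr4:147936777-147937026 and that of Loxl4 at chr19:42612807-42613056.
Plod1: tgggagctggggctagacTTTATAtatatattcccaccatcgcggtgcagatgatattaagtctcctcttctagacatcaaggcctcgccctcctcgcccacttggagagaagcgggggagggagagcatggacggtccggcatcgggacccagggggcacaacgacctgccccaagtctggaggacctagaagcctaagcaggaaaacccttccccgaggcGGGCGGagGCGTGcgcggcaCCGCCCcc
Loxl4: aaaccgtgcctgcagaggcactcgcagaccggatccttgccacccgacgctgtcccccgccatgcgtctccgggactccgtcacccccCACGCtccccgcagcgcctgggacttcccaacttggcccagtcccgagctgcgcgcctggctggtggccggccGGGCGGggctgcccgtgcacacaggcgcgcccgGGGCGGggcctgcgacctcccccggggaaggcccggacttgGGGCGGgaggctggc

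The Plod1 stretch held 1 TATAAA, 2 GGGCGG and 1 GCGTG, and that of Loxl4 held 3 GGGCGG and 1 GCGTG. The TATAAA match of Plod1 is the other-strand spelling TTTATA and lies near the end of the stretch farthest from the start. Of 27025 RefSeq promoters of that length, 13.0% held TATAAA, 34.5% CCAAT, 32.9% GGGCGG, 16.6% ACGTG and 28.2% GCGTG on either strand. The GC content was 61.6% for Plod1 and 76.0% for Loxl4, beside a median of 52.0%. RefSeq entries were found for 5 of the 10 genes, which besides these were Plod3, Pcolce and Serpinh1. Entries for Lox, Loxl1, Loxl2, Loxl3 and Plod2 were not used here. A match of letters is a description and not a binding site.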

How the data were processed

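RNA of 3T3-L1 cells was sequenced at day 0, 4 and 8, with 3 samples per day grouped by their titles. The authors filtered the reads, mapped them with HISAT/Bowtie2 and quantified genes with RSEM, and the submitters' processing notes also name CASAVA 1.4. The methods name an Illumina platform, the labels a library kit for another one. The labels' extraction text also speaks of removing DRG, which is at odds with the cell line that the labels name as the source. The genome build and the use of strand are not given in the sources used here. Expected counts, RSEM's estimated read numbers, were deposited without normalization, and 29.8% carry decimals. The authors also deposited FPKM, which corrects for gene length and depth. The files list genes above 0 only, the lowest FPKM being 0.01. The deposited length is the isoform-weighted transcript length. A floor of 3 counts corresponds to 0.147 to 0.165 CPM when scaled to library size alone.

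Expected counts were rounded and fitted in edgeR 4.0.16 (R 4.3.3) with filterByExpr, TMM factors (0.954 to 1.05) and glmQLFit over all 9 samples with 1 coefficient per day. Tests were glmQLFTest with Benjamini-Hochberg adjustment, and calls required an adjusted p under 0.05 together with a change above 2-fold. The SE is the log2 fold change divided by the square root of F. The common biological coefficient of variation was 0.0538. FPKM means, SDs, shares and ratios were computed from deposited FPKM, and ratios were compared on the log2 scale by exact permutation tests in SciPy 1.17.1. Alternatives used DESeq2 1.42.0 and limma 3.58.1. The edgeR, DESeq2 and limma fits were run on simulated counts for the early phase only. The ratios, permutation tests and sequence steps were not run on simulated data.

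The 10 genes, the gene lists and the tests were chosen with earlier results of these data known. The text names all 10 genes and, per pathway list, the gene of highest mean FPKM and the largest rise and fall among called genes in each comparison. Fn1, Col1a1, Col5a1, Col5a2, Col11a1, Slc2a1 and Adm fall outside this rule and were chosen after their values were seen. Cell type markers are named as checks of the stages. Neighbours are the 3 genes of highest Pearson's r among genes whose mean log2 CPM was 4 or more. Shared 50-base stretches and exon overlaps come from GENCODE transcripts, and promoter sequences from RefSeq (GRCm38.p6). No coordinates of the authors' build were used.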

Additional observations from a re-analysis of the deposited data

How the results depend on the processing

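The 30 log2 fold changes of the 10 genes were recomputed under 20 settings each. Of the 600 values, 565 kept their direction and their side of the threshold, 23 lost the call and 4 gained it. The other 8 changed sign without passing in either setting. They were Lox over the whole process (-0.0540 with library size alone, -0.0401 with limma on log2(FPKM + 1), -0.0402 on log2(FPKM + 0.1)) and Plod3 late (-0.000471 with upper-quartile factors, -0.0388 with library size alone, -0.0378 and -0.0382 with limma on the same scales, and -0.0158 without day 4 replicate 1, the lowest of a range up to 0.0485 when each sample was left out). The calls lost concerned Loxl1 and Plod3 early, Loxl2 late, and Plod3 and Pcolce over the whole process. Those gained concerned Plod2 early and Loxl3 and Pcolce late. Calls near 2-fold depended on the setting. Over the whole process Plod2 was at 1.00, and at 0.94 with upper-quartile factors, 0.89 with library size alone and 0.82 with limma on log2(FPKM + 1). With library size alone the median of all genes shifted by -0.11 over the whole process.

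Early, the number of the 10 genes called lower was between 1 and 2 when each sample was left out in turn (2 with all samples), and without day 4 replicate 3 Loxl3 was not called. Late, limma on log2(FPKM + 1) called 0 of the 10 genes higher, in place of 1, since Plod2 was then at 0.97. Over the whole process the genes called higher numbered 3, and 1 with limma on either log2(FPKM + 1) or log2(FPKM + 0.1). They numbered as few as 2 when each sample was left out in turn, where Plod2 was as low as 0.95. Those called lower numbered 1, and 2 with library size alone or limma on log2(FPKM + 0.1), where Loxl3 passed 2-fold. Among all genes, those called higher and lower early numbered 1285 and 1050, and 708 and 565 with limma on log2(FPKM + 1). Those of the late phase numbered 558 and 370, and 224 and 136 with that limma setting, and those of the whole process 1356 and 1013, and 753 and 528. With at least 10 counts in every sample, where fewer genes are tested, 831 were called higher early, and 310 higher and 173 lower late. The cause of the other shifts was not tested.

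Whether the replicate numbers pair the samples is not stated in the sources used here. The deviations of same-numbered samples from their day means correlated with a mean r of 0.0307, between -0.0348 and 0.0750. For samples of different number the mean r was -0.0154. With 3 samples per day, such small correlations cannot decide whether the samples are paired. With the replicate block, 1287 genes were called higher and 1053 lower early, and over the whole process Plod2 was at 0.9989 and 2 of the 10 genes were called higher. The block changed no other call of the 10 genes at 2-fold. Loxl2, the lowest of the 10 genes, had the largest SE, between 0.16 and 0.18, and the part of depth in it was not tested.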

Other observations

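RSEM's isoform-weighted transcript length of Lox differed by stage. It lay between 4794 and 4814 bases at day 0, between 4699 and 4738 at day 4 and between 4754 and 4760 at day 8, with no overlap between stages. Serpinh1 differed by less, at 2242 to 2245 bases at day 0 and 2238 to 2239 at day 4. The lengths of Loxl1, Loxl2, Loxl3, Plod1, Plod2, Plod3 and Pcolce were the same in all 9 samples, and that of Loxl4 was the same to within 1 base. Isoform levels were not analysed here.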
